A study of Sus scrofa with 15 samples.

Results

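The miR-133 knockdown vector Lv133KD was compared with the control vector Lv3NC in IPEC-J2 cells, an epithelial line from the small intestine of an unsuckled newborn piglet. The comparison took 6 of the study's 15 RNA-sequencing libraries, 3 with each vector. It covered 11531 of the 19000 listed genes, those with at least 1 FPKM (sequenced fragments scaled to transcript length and library size) in at least 3 of the 6 libraries. All cells carried a lentiviral vector. The other 3 groups of 3 libraries carried Lv143KD, the control vector Lv20NC or the miR-143 overexpression vector OV143. Lv143KD stands in the same table as Lv133KD and Lv3NC and shares Lv3NC as its control. The design text and the labels differ on the microRNA that Lv143KD targets, and the label is used here. The sources used here do not give the time after infection, any selection of infected cells or the vectors' sequences.

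MicroRNAs guide Argonaute proteins to messenger RNAs, mostly by pairing of a short seed with sites in the untranslated region after the stop codon, and lower the level or the translation of those messengers. Reducing a microRNA can therefore raise its targets, usually by modest amounts. The miR-133 family is best known from skeletal and heart muscle, where it is described as acting on regulators of growth and the cytoskeleton. In epithelial and tumour cells it has been described as acting on growth factor receptors and survival proteins.

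The RefSeq gene table places the miR-133 precursor genes on 3 chromosomes of Sscrofa11.1: MIR133A-1 on chromosome 17 from 61904781 to 61904883, MIR133A-2 on chromosome 6 from 106998899 to 106998971 and MIR133B on chromosome 7 from 45980138 to 45980217. Of 315 microRNA genes in that table, 0 are listed in the expression table. The level of miR-133, and so the action of the vector on it, was not checked.

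The 6 libraries had an epithelial profile. KRT8, an epithelial keratin, lay between 553 and 888 FPKM and the adhesion protein gene EPCAM between 267 and 359 FPKM. KRT19 lay between 211 and 590 FPKM, CLDN4 between 267 and 777, KRT18 between 121 and 186 and CDH1 between 158 and 184. The epithelial markers VIL1 and KRT20 were low. VIL1 lay between 1.45 and 2.34 FPKM, and KRT20, a keratin of differentiated intestinal epithelium, is listed at 0 in all 6. The 10 leukocyte markers summed to 4.64 to 6.59 FPKM in Lv133KD and 5.54 to 7.32 in Lv3NC, with PTPRC at 0 throughout. The 8 fibroblast markers summed to 3.27 to 5.26 and 4.09 to 6.68 FPKM with DCN and LUM at 0. The 7 endothelial markers summed to 11.3 to 12.3 and 11.6 to 12.9, with CDH5 alone between 8.28 and 10.75 FPKM. The 11 muscle markers summed to 1.47 to 1.83 and 1.21 to 2.31, with MYOD1, ACTA1 and MYH2 at 0.

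Libraries numbered 1 and 2 stood apart by number more than by vector, and those numbered 3 did not keep together. The first principal component of the 9 libraries of the table held 61.8% of the variance and placed Lv133KD at -4.16, -22.7 and 0.637 and Lv3NC at 7.70, -18.2 and 31.9 (replicates 1 to 3). Lv143KD was at -3.08, -20.1 and 28.1. On the second component (20.1%) Lv133KD replicate 3 was at 9.09, near the replicate 1 libraries of the 3 vectors (11.3 to 13.1), while Lv143KD and Lv3NC replicate 3 were at -5.40 and -13.3. Lv133KD replicate 3 thus lay near the replicate 1 libraries and apart from the other two numbered 3, which lay near each other. Of all tested genes, 96.7% lay within 0.5 on the log2 scale of their partner in pair 1, 98.7% in pair 2 and 82.4% in pair 3. Since same-numbered Lv133KD and Lv3NC libraries deviated together from their group means, each called gene is given from limma without and with the replicate number as a block. Where 2 adjusted p-values follow each other, the first is without the block. Fold changes are differences of mean log2(FPKM + 1), Lv133KD minus Lv3NC, with the standard error (SE) without the block.

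Without the block, 2 genes rose and 0 fell at an adjusted p under 0.05, which is 0.0173% and 0% of the genes tested. An unadjusted p under 0.05 was reached by 378 genes, or 3.28%. With the block, 31 genes rose (0.269%) and 2 fell (0.0173%), by 1.35-fold to 2.32-fold for the rises. Of these 33 genes, 30 had 3 Lv133KD values all above or all below the 3 Lv3NC values. Over all tested genes, 4.71% lay wholly higher and 3.34% wholly lower in Lv133KD. Leaving out any 1 of the 6 libraries left 0 calls without the block. With the block, leaving out the libraries numbered 1, 2 or 3 left 1, 14 and 80 calls, of which 0, 11 and 30 were among the 33. Without a filter on low values the block gave 0 calls (smallest limma adjusted p = 0.0535), and with values centred on the library median 5 of the 33 missed the threshold, among them HOXD8, BASP1 and PGRMC1 (limma adjusted p = 0.0540, 0.0559 and 0.0955 with the block). In a block fit of only the 6 libraries 13 of the 33 were lost, among them BASP1, ACTL6A, HOXD8, PGRMC1 and KIAA1191 (limma adjusted p = 0.0831, 0.0945, 0.0829, 0.136 and 0.0997). Without the variance trend 11 were lost, among them HNRNPAB, YWHAB, LRRC1 and BLVRA (limma adjusted p = 0.0560, 0.0510, 0.0510 and 0.0540).

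**Figure D1:**
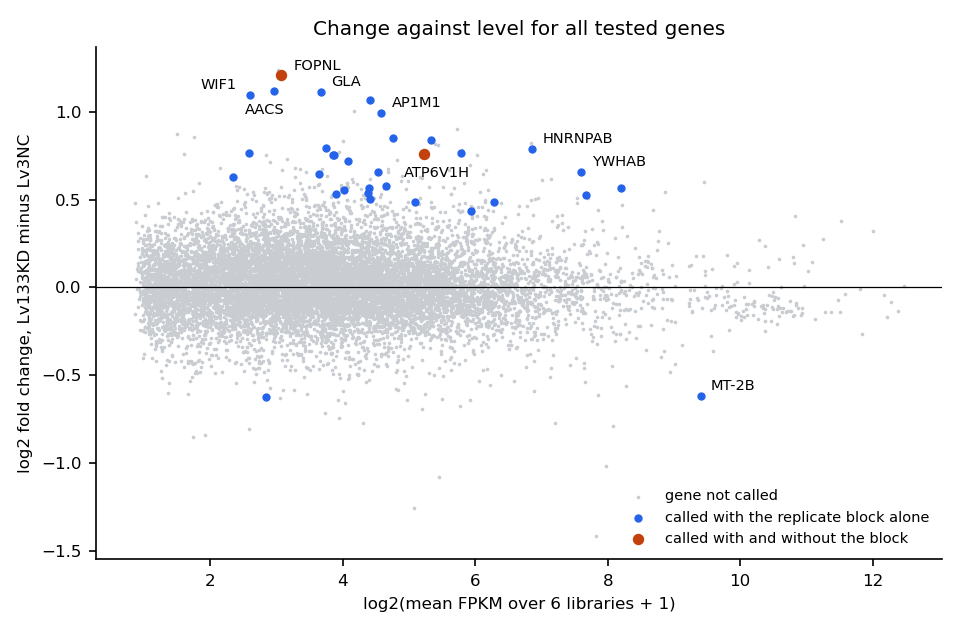
Log2 fold change of each tested gene (Lv133KD minus Lv3NC, vertical) against log2 of its mean FPKM over 6 libraries plus 1 (horizontal). FOPNL and ATP6V1H, the 2 genes called with and without the block, and most of the genes called with the block lie above the cloud, and MT-2B lies below it at a log2 fold change of -0.62.

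The called genes fall into membrane traffic and acidification, the centrosome and cytoskeleton, signalling and adaptor proteins, metabolism, and RNA or chromatin. The first group holds the vacuolar proton pump gene ATP6V1H, the lysosomal enzyme gene GLA and the clathrin adaptor gene AP1M1. In bulk RNA, a change in the cells expressing a gene and a change in RNA per cell cannot be told apart, and this holds for every result here.

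ATP6V1H (NCBI Gene 397472; chromosome 4 from 77211493 to 77269757) encodes the regulatory H subunit of the proton pump that acidifies lysosomes and endosomes. It was at 46.26, 46.96 and 45.36 FPKM in Lv133KD replicates 1 to 3 and at 25.50, 28.91 and 26.31 FPKM in Lv3NC. The groups lay far apart with little spread within either, and the log2 fold change was 0.76 (SE 0.08, limma adjusted p = 0.0330 and 0.00565). No other subunit of the pump was called. Of 18 tested pump genes, 8 were higher and 10 lower, with a median log2 fold change of -0.02 (0.01 over all genes). The pump median was 0.02 without Lv3NC replicate 2 and 0.00356 without Lv3NC replicate 3. ATP6V0C, a membrane-sector subunit, was at 222.5, 206.3 and 212.5 against 156.4, 196.7 and 188.9 FPKM without passing (log2 fold change 0.25, limma adjusted p = 0.924 and 0.264). Wholly lower were 4 of the 18 pump genes, where 3.34% of all genes were. Among them were ATP6V0B at -0.25 and the accessory gene ATP6AP2 at -0.19, neither called.

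GLA (NCBI Gene 100415928; chromosome X from 83024582 to 83032273) encodes the lysosomal alpha-galactosidase A. Its 3 Lv133KD libraries held 15.77, 17.49 and 15.29 FPKM and its Lv3NC libraries 5.91, 9.87 and 5.67. Replicate 2 was the highest in both groups, and the groups did not overlap. GLA rose by 1.11 (SE 0.21) on the log2 scale with the block (limma adjusted p = 0.00831, against 0.287 without). Other lysosomal hydrolases leaned the other way. Of 27 tested, 18 were lower, 11 of them wholly, where 47.6% and 3.34% of all genes were. The median was -0.16, with pair medians of -0.03, -0.06 and -0.35. TPP1, a lysosomal peptidase gene, was at 58.04, 53.22 and 49.39 against 66.49, 65.97 and 74.14 FPKM (log2 fold change -0.36, limma adjusted p = 0.813 and 0.158). IDUA, which degrades glycosaminoglycans, differed by -0.38 and the protective protein gene CTSA by -0.27. None of the lower hydrolases was called. Without Lv3NC replicate 3 the median was -0.07.

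AP1M1 (NCBI Gene 100511918; chromosome 2 from 61356369 to 61386133) encodes the cargo-binding medium subunit of the AP-1 clathrin adaptor of the trans-Golgi network and endosomes. It was at 30.44, 31.02 and 30.60 FPKM in Lv133KD and at 13.44, 19.52 and 12.63 FPKM in Lv3NC. The Lv133KD values were nearly identical, and Lv3NC replicate 2 was the nearest to them. The log2 fold change was 0.99 (SE 0.21, limma adjusted p = 0.416 and 0.0336). Of 20 clathrin and adaptor genes, 17 were higher and 3 lower, where 52.4% and 47.6% of all genes were, with a median of 0.08 that was 0.04 without Lv3NC replicate 3. AP1S2, a small AP-1 subunit, was wholly higher at 57.83, 70.69 and 69.41 against 41.18, 44.07 and 56.70 FPKM (limma adjusted p = 0.924 and 0.0749). AP2B1, a subunit of the plasma membrane adaptor, was wholly higher by 0.41 with the same p-values.

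NECAP1, which binds adaptors at clathrin-coated vesicles, was at 23.41, 24.57 and 23.56 against 15.61, 17.81 and 16.16 FPKM. It rose by 0.51 with the block (limma adjusted p = 0.0336, against 0.230 without). PIP5K1A, a kinase that makes the membrane lipid phosphatidylinositol bisphosphate, was at 29.37, 29.59 and 27.86 against 20.09, 20.64 and 16.74 FPKM and rose by 0.58 with the block (limma adjusted p = 0.0287, against 0.287 without). TBC1D8B, which carries a Rab GTPase-activating domain, rose by 0.63 at a low level, from 2.63, 3.49 and 2.84 to 4.86, 5.52 and 5.05 FPKM (limma adjusted p = 0.287 and 0.0290). All 3 genes had separated groups with a narrow spread in Lv133KD. In the block fit of only the 6 libraries none of NECAP1, PIP5K1A and TBC1D8B was called (limma adjusted p = 0.101, 0.0576 and 0.0626).

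FOPNL (NCBI Gene 100621608; chromosome 3 from 6977195 to 6996024), which encodes a protein of the centrosome and cilium base, had the largest fold change among called genes. It was at 11.37, 9.42 and 11.34 FPKM in Lv133KD and 3.42, 4.55 and 4.22 FPKM in Lv3NC. Every Lv133KD value exceeded the highest Lv3NC value by more than the spread within either group (log2 fold change 1.21, SE 0.13, limma adjusted p = 0.0330 and 0.00802). Of 21 tested genes of the centrosome and cilium base, 12 were higher, with a median of 0.06 that was -0.0145 without Lv3NC replicate 3, and FOPNL was the 1 called. CETN2, a calcium-binding centriole protein gene, was wholly higher at 31.33, 33.54 and 38.75 against 19.93, 25.98 and 21.43 FPKM without passing (log2 fold change 0.60, limma adjusted p = 0.693 and 0.0942).

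Cytoskeletal and cortical genes were also among the rises with the block. SEPT8, a septin that forms filaments, was at 17.97, 16.63 and 16.84 against 9.16, 11.39 and 8.92 FPKM (log2 fold change 0.75, SE 0.13, limma adjusted p = 0.230 and 0.0328). LRRC1, a leucine-rich repeat protein related to the polarity protein Scribble, was at 6.91, 6.31 and 6.37 against 2.89, 4.25 and 3.25 FPKM (log2 fold change 0.77, SE 0.15, limma adjusted p = 0.287 and 0.0477). BASP1, a membrane-attached signal protein, rose by 0.48 (limma adjusted p = 0.416 and 0.0441). In each of these 3 genes the groups did not overlap.

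**Figure D2:**
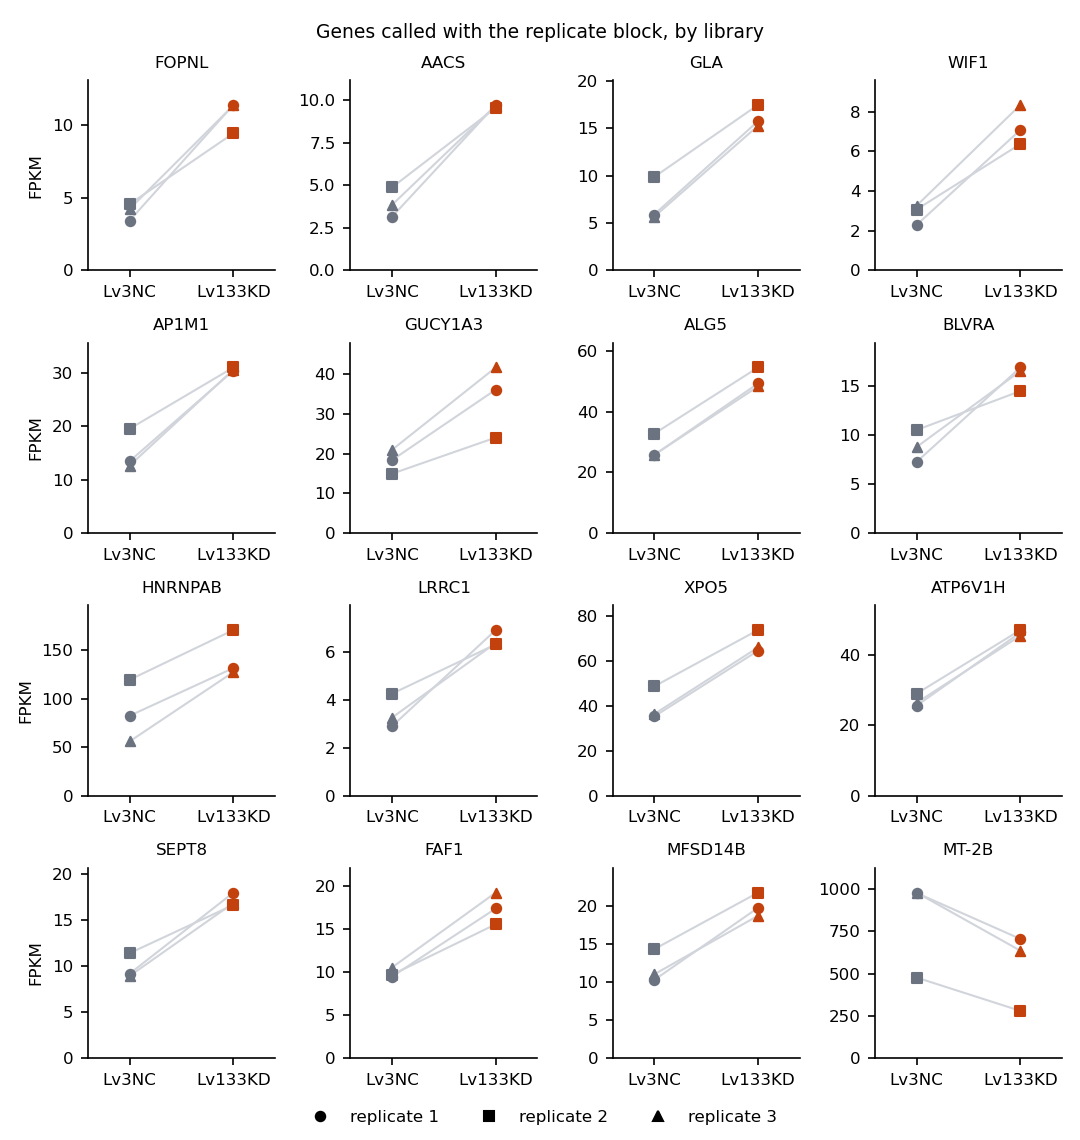
FPKM (vertical, from 0) of 16 genes called with the replicate block in the 3 Lv3NC and 3 Lv133KD libraries, with lines joining libraries of the same number. The 15 rises are separated between vectors, while MT-2B is lower in each pair and its groups overlap, since both replicate 2 libraries are low.

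Among signalling genes, WIF1 (NCBI Gene 100512657; chromosome 5 from 29450442 to 29543913), a secreted inhibitor that binds WNT ligands, rose with the block. It was at 7.08, 6.37 and 8.34 FPKM in Lv133KD and 2.29, 3.07 and 3.26 in Lv3NC. The gap between the groups was wider than the spread within either (log2 fold change 1.10, SE 0.14, limma adjusted p = 0.0835 and 0.00565). Only 9 of 18 measured WNT antagonist genes passed the filter on low values. Of these, 8 were higher, with a median of 0.10 that was -0.00205 without Lv3NC replicate 1. WIF1 was the 1 called, and AXIN2, a feedback inhibitor of the pathway, was at 1.05, 1.28 and 1.19 against 0.80, 1.33 and 0.77 FPKM.

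GUCY1A3 (NCBI Gene 553100; chromosome 8 from 44448758 to 44520737) encodes the alpha subunit of the soluble guanylate cyclase that responds to nitric oxide. It was at 36.09, 24.03 and 41.67 FPKM in Lv133KD and 18.33, 14.92 and 20.91 FPKM in Lv3NC. The order of replicates was the same in both groups, with replicate 2 lowest and replicate 3 highest (log2 fold change 0.85, SE 0.22, limma adjusted p = 0.813 and 0.0126). Its partner GUCY1B3, the beta subunit, was at 48.28, 43.58 and 56.17 against 54.85, 39.64 and 69.06 FPKM, with overlapping groups and a log2 fold change of -0.11 that was 0.07 without Lv3NC replicate 3. Of 6 tested genes of nitric oxide and cGMP signalling, 2 were higher and 4 lower, with a median of -0.11 that was 0.03 without Lv3NC replicate 3 and -0.00525 without Lv133KD replicate 2.

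A pair of adaptor protein genes also rose with the block. FAF1, a ubiquitin-binding FAS-associated factor, was at 17.39, 15.56 and 19.24 against 9.47, 9.69 and 10.53 FPKM (log2 fold change 0.75, SE 0.11, limma adjusted p = 0.147 and 0.00831). YWHAB, the phosphoprotein-binding 14-3-3 beta, was at 232.2, 239.3 and 234.0 against 146.2, 181.0 and 124.5 FPKM (log2 fold change 0.66, SE 0.14, limma adjusted p = 0.416 and 0.0336). In both genes the Lv133KD libraries lay wholly above Lv3NC and, for YWHAB, close together.

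Among metabolic genes, AACS (NCBI Gene 100156545; chromosome 14 from 28109845 to 28169261), which activates the ketone body acetoacetate for lipid synthesis, had the largest rise. It was at 9.74, 9.57 and 9.70 FPKM in Lv133KD and at 3.15, 4.88 and 3.85 FPKM in Lv3NC. The Lv133KD libraries were nearly equal, at 9.67 ± 0.0889 FPKM (SD, n = 3), against 3.96 ± 0.870 FPKM in Lv3NC. AACS differed by 1.12 on the log2 scale (SE 0.15), with limma adjusted p = 0.0835 and 0.0126. Of 8 tested ketone body genes, 4 were higher and 4 lower. Of 16 fatty acid synthesis genes, 11 were higher, with AACS as the 1 called and a median of 0.13 that was 0.07 without Lv3NC replicate 3.

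The cholesterol pathway leaned upward. Of 24 tested genes, 19 were higher, 13 of them in all 3 pairs (16.2% of all genes were), and the median was 0.28, with pair medians of 0.27, 0.01 and 0.48. Without Lv3NC replicate 3 the median was 0.16. HSD17B7, a sterol ketoreductase, was the 1 called, at 22.76, 23.53 and 25.89 against 14.52, 17.81 and 15.47 FPKM (log2 fold change 0.57, SE 0.11, limma adjusted p = 0.287 and 0.0441). With the block this call was lost in a fit of only the 6 libraries (limma adjusted p = 0.0748) and without the variance trend (0.0565). HMGCS1, which makes the precursor of mevalonate, was wholly higher at 17.75, 17.48 and 22.05 against 11.31, 15.05 and 10.73 FPKM without passing (log2 fold change 0.60, limma adjusted p = 0.924 and 0.260). SREBF2, the transcription factor of the pathway, differed by 0.29 with overlapping groups. In Lv143KD the list's median against the same controls was 0.000916. In the direct comparison of the vectors 21 of the 24 genes were higher in Lv133KD, with a median of 0.24 and none called. Over all genes 6751 of 11531 were higher, with a median of 0.02. That comparison includes replicate 3, where Lv133KD lay apart from the other vectors. In Lv143KD, HMGCS1 was at 14.44, 17.79 and 7.45 FPKM, HSD17B7 at 20.90, 23.53 and 19.97, and SREBF2 at 29.87, 23.78 and 30.83.

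ALG5 (NCBI Gene 100154411; chromosome 11 from 12777549 to 12815969) makes the glucose donor dolichyl-phosphate glucose for N-glycan assembly. It was at 49.36, 54.64 and 48.38 against 25.77, 32.78 and 25.80 FPKM, with replicate 2 the highest in both groups (log2 fold change 0.84, SE 0.12, limma adjusted p = 0.146 and 0.00565). Of 27 tested N-glycan genes, 15 were higher, with a median of 0.01 that was -0.0112 without Lv3NC replicate 3. The mannosyltransferase gene ALG11 and the glucosyltransferase gene ALG10 were wholly higher, by 0.36 and 0.45, without passing.

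BLVRA (chromosome 18 from 51131576 to 51185493), which reduces biliverdin to bilirubin, was at 16.85, 14.45 and 16.49 against 7.23, 10.48 and 8.75 FPKM (log2 fold change 0.80, SE 0.13, limma adjusted p = 0.225 and 0.0441). Replicate 2 was the lowest in Lv133KD and the highest in Lv3NC. HMOX1, the heme oxygenase that supplies biliverdin, was at 6.24, 5.34 and 5.48 against 5.85, 5.53 and 3.96 FPKM, with overlapping groups. Of 13 heme and bilirubin genes, 9 were higher, with a median of 0.09 that was 0.03 without Lv3NC replicate 3. PGRMC1, a heme-binding membrane protein, rose by 0.44 with the block although its groups overlapped, at 66.34, 83.27 and 59.16 against 45.84, 61.94 and 45.68 FPKM (limma adjusted p = 0.924 and 0.0497). MFSD14B, a predicted membrane transporter, rose by 0.72, from 10.26, 14.30 and 11 to 19.74, 21.73 and 18.70 FPKM (limma adjusted p = 0.287 and 0.0145).

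XPO5 (NCBI Gene 100155084; chromosome 7 from 38530704 to 38569558) carries precursor microRNAs from the nucleus to the cytoplasm. It was at 64.55, 73.75 and 66.01 FPKM in Lv133KD and 35.25, 48.64 and 36.31 FPKM in Lv3NC. The groups did not overlap, and replicate 2 was the highest in both (log2 fold change 0.76, SE 0.14, limma adjusted p = 0.287 and 0.00831). Of 17 microRNA processing genes, 13 were higher, with a median of 0.10 and pair medians of 0.05, 0.06 and 0.31, and without Lv3NC replicate 3 the median was 0.05. AGO4, an Argonaute protein, was wholly higher at 4.41, 4.28 and 4.06 against 3.05, 2.76 and 2.97 FPKM without passing (log2 fold change 0.42, limma adjusted p = 0.483 and 0.0887). DROSHA and DICER1, the nucleases that cut microRNA precursors, differed by 0.45 and 0.33 with overlapping groups and were lowest in Lv3NC replicate 3, at 4.30 and 5.83 FPKM. Lv143KD replicate 3 held 5.51 and 7.01 FPKM of them and Lv133KD replicate 3 held 9.18 and 10.88.

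HNRNPAB, an RNA-binding protein, was at 131.7, 171.0 and 127.6 against 82.41, 119.6 and 55.92 FPKM (log2 fold change 0.79, SE 0.29, limma adjusted p = 0.924 and 0.0389). Its spread within a group was wide and followed the replicate number. Of 21 hnRNP genes, 16 were higher, with a median of 0.06 that was -0.00506 without Lv133KD replicate 2 and -0.0139 without Lv3NC replicate 3. NAA15, the ribosome-anchoring subunit of the N-terminal acetyltransferase NatA, was at 24.43, 29.71 and 27.50 against 17.70, 18.25 and 14.81 FPKM (log2 fold change 0.66, SE 0.11, limma adjusted p = 0.225 and 0.0284). NAA40, an acetyltransferase of histones, was wholly higher at 22.53, 23.15 and 22.13 against 10.65, 16.16 and 7.14 FPKM without passing (log2 fold change 1.00, SE 0.29, limma adjusted p = 0.924 and 0.0703). ACTL6A, an actin-related subunit of chromatin remodelling complexes, rose by 0.49 (limma adjusted p = 0.434 and 0.0312). The homeobox gene HOXD8 rose by 0.54 (limma adjusted p = 0.924 and 0.0497).

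Of the remaining rises, KIAA1191 was at 16.76, 17.02 and 15.85 against 10.81, 11.54 and 11.03 FPKM (limma adjusted p = 0.206 and 0.0336). The unnamed gene LOC102158723 rose by 0.53 (limma adjusted p = 0.287 and 0.0366). The predicted gene BGI_novel_G000385 rose by 1.07 (limma adjusted p = 0.416 and 0.0126) and BGI_novel_G000294 by 0.57 (limma adjusted p = 0.287 and 0.0381).

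The falls were few. MT-2B (NCBI Gene 396827; chromosome 6 from 18645125 to 18646034), a metallothionein that binds zinc and copper, was at 705.5, 280.0 and 635.9 FPKM in Lv133KD and 977.7, 477.3 and 979.9 FPKM in Lv3NC. Both replicate 2 libraries were low, so the groups overlapped, but each Lv133KD library was below its same-numbered partner (log2 fold change -0.62, SE 0.44, limma adjusted p = 0.924 and 0.0170). Near-identical metallothionein copies can share reads. Of 17 metallothionein and zinc transport genes, 11 were lower, with MT-2B as the 1 called and a median of -0.02 that ran from -0.06 to 0.03 when 1 library was left out (-0.06 without Lv3NC replicate 2, 0.03 without Lv3NC replicate 1). The other fall was that of the predicted gene BGI_novel_G000368, at 5.72, 2.75 and 5.14 against 9.52, 4.01 and 9.72 FPKM (limma adjusted p = 0.924 and 0.0497).

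Some genes with separated groups and larger or similar differences were not called. CDT1, which loads the replicative helicase, was at 9.94, 11.37 and 8.86 against 2.86, 7.76 and 2.02 FPKM (log2 fold change 1.24, SE 0.44, limma adjusted p = 0.924 and 0.121). On the lower side, the unnamed gene LOC102158679 had the largest difference among separated genes averaging at least 5 FPKM, at 9.37, 11.53 and 10.48 against 18.15, 14.39 and 22.62 FPKM (log2 fold change -0.74, limma adjusted p = 0.924 and 0.173). ZFP36, which destabilises messengers with AU-rich elements, was at 36.73, 20.28 and 24.41 against 38.54, 36.94 and 55.97 FPKM (log2 fold change -0.69, limma adjusted p = 0.924 and 0.161). SFTA2, a secreted surfactant-associated protein, was at 10.70, 14.49 and 10.53 against 16.75, 19.72 and 18.45 FPKM (log2 fold change -0.59, limma adjusted p = 0.924 and 0.0703). The predicted gene BGI_novel_G000325 was wholly lower at -0.52. The complement protease gene CFD, the serine protease gene PRSS22, the lysyl oxidase gene LOXL4 and the transcription factor gene MAFF were wholly lower, with log2 fold changes of -0.61 to -0.54, and none was called.

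The called genes were then set beside Lv143KD, which shares the Lv3NC controls. ATP6V1H was at 46.64, 46.32 and 46.33 FPKM and FOPNL at 11.65, 10.89 and 9.51 FPKM in Lv143KD. WIF1 was at 6.58, 6.86 and 7.91 FPKM and MT-2B at 673.4, 301.8 and 667.9 FPKM. For these 4 genes the Lv143KD values lay within or near the range of the Lv133KD libraries. AP1M1 was at 31.14 and 31.40 FPKM in replicates 1 and 2 and at 18.78 FPKM in replicate 3, nearer to Lv3NC. Over the 31 rises the median log2 fold change was 0.72 in Lv133KD and 0.61 in Lv143KD against the same controls. The 31 genes were chosen with the same Lv3NC libraries, so the 0.61 is not independent of that choice. The direct comparison of the vectors, which uses no Lv3NC library in its difference, gave differences of -0.38 to 0.30 for these genes. It called 0 of 11531 genes (0%) by limma in either fit. An unadjusted p under 0.05 was reached by 15 genes without the block and 206 with it, and the smallest adjusted p with the block was 0.908. No change described here was thus shown to differ between Lv133KD and Lv143KD.

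Genes described in the literature as miR-133 targets showed no common direction. Of 41 on the list, 38 were measured and 32 tested, of which 16 were higher and 16 lower. The median was -0.00286 and the pair medians were 0.06, -0.07 and -0.03. None was called in limma with or without the block. At an unadjusted p under 0.05 with the block, 3 were higher and 2 lower, beside 9.13% and 7.44% of all genes. In all 3 pairs 5 were higher and 8 lower, where 16.2% and 16.7% of all genes were.

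Among the receptors on that list, IGF1R, the insulin-like growth factor receptor, was at 16.16, 18.77 and 15.83 against 12.40, 15.65 and 11.77 FPKM, wholly higher (log2 fold change 0.33, SE 0.16, limma adjusted p = 0.924 and 0.206). EGFR, the epidermal growth factor receptor, was at 46.61, 42.46 and 42.85 against 57.05, 47.00 and 44.53 FPKM with overlapping groups. FGFR1, a fibroblast growth factor receptor, differed by -0.29 and the hepatocyte growth factor receptor gene MET by 0.02. The receptors thus lay on both sides of 0.

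Of the survival and metabolic genes on it, PNP, a purine nucleoside phosphorylase, was wholly higher at 93.93, 96.59 and 94.15 against 77.56, 88.38 and 73.38 FPKM (log2 fold change 0.25, limma adjusted p = 0.924 and 0.215). MCL1, a survival protein, was wholly higher by 0.17, and BCL2L1 of the same family differed by -0.03. PPP2CB, a phosphatase catalytic subunit, was the 1 wholly lower, at 89.94, 90.10 and 92.15 against 98.46, 92.25 and 119.6 FPKM. Of the cytoskeletal targets, the GTPase gene RHOA was at -0.02, CDC42 at -0.07, the transcription factor gene SRF at 0.10 and TAGLN2 at 0.01 on the log2 scale. The actin-bundling gene FSCN1 was higher in all 3 pairs, at 40.56, 39.25 and 36.58 against 28.68, 37.57 and 29.29 FPKM, with overlapping groups (log2 fold change 0.29, limma adjusted p = 0.924 and 0.249). LASP1, an actin-binding protein gene, was higher in all 3 pairs by 0.11 with overlapping groups. RUNX2, a transcription factor of bone, had the lowest value of the list (-0.46), at 5.29, 2.98 and 5.27 against 7.26, 4.28 and 8.38 FPKM.

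**Figure D3:**
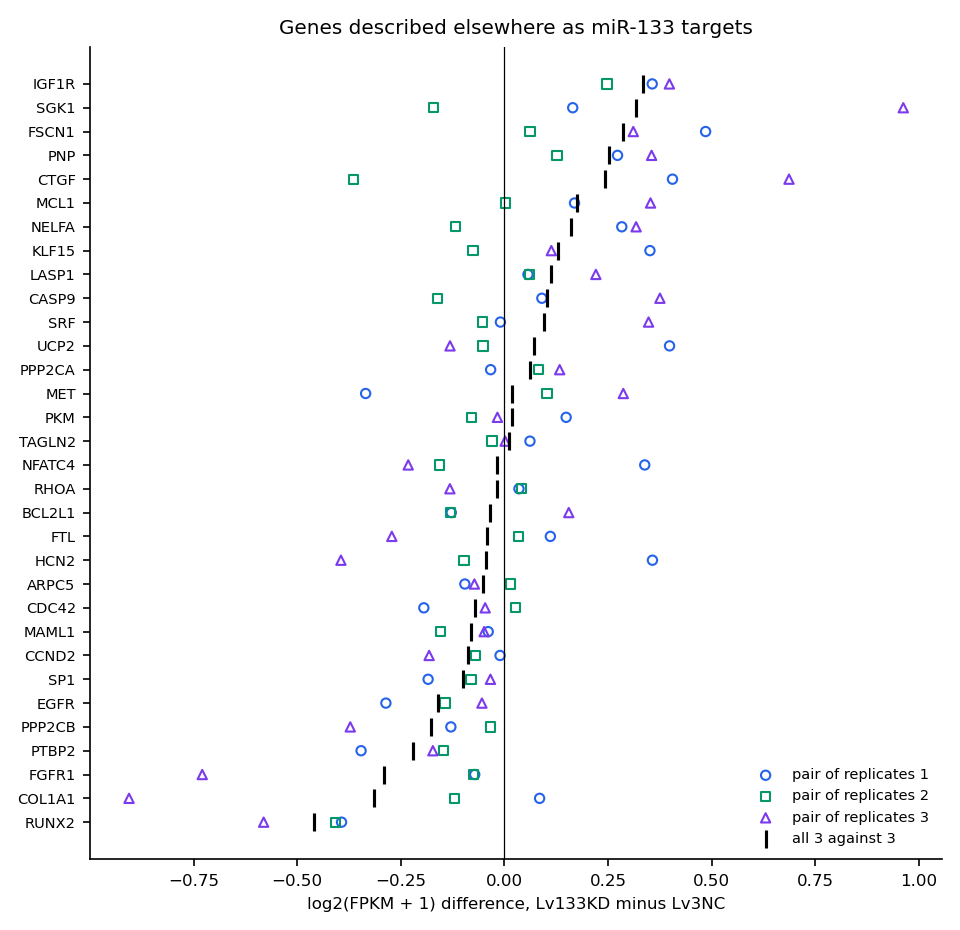
Log2(FPKM + 1) difference, Lv133KD minus Lv3NC, of the 32 tested literature targets of miR-133 in each same-numbered pair (open symbols) and over 3 against 3 libraries (bars). The bars run from -0.46 for RUNX2 to 0.33 for IGF1R, with 16 on each side of 0.

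The ATF4 amino acid response, a set of amino acid synthesis, transport and transfer RNA charging genes, leaned lower without a call. Of 31 tested genes, 27 were lower, 18 of them in all 3 pairs, where 16.7% of all genes were. The median was -0.36 and the pair medians were -0.42, -0.38 and -0.21. NUPR1, a stress-induced chromatin protein, was at 22.98, 7.0 and 21.20 against 42.22, 14.01 and 87.92 FPKM (log2 fold change -1.25, SE 0.82, limma adjusted p = 0.924 and 0.0736). ASNS, asparagine synthetase, was at 272.0, 129.6 and 333.1 against 445.4, 171.0 and 498.6 FPKM (log2 fold change -0.56, limma adjusted p = 0.924 and 0.107). Both were low in the replicate 2 libraries of both vectors and lower in Lv133KD within each pair. GARS, a transfer RNA synthetase, was lower in each pair too, at a log2 fold change of -0.40, and CHAC1, which degrades glutathione, was the highest of the list. At an unadjusted p under 0.05 with the block, 17 were lower and 0 higher, where 7.44% and 9.13% of all genes were. The median moved between -0.70 and 0.05 when 1 library was left out. The value above 0 came without Lv133KD replicate 2 and the -0.70 without Lv3NC replicate 2. These medians are unpaired, so in each case the other low replicate 2 library stayed in without its partner. The pair medians were all below 0. In Lv143KD the list's median against the same controls was -0.21. In the direct comparison of the vectors 24 of the 31 genes were lower in Lv133KD and 7 higher, with a median of -0.145 and none called. Over all genes 4780 of 11531 were lower in that comparison, with a median of 0.02.

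**Figure D4:**
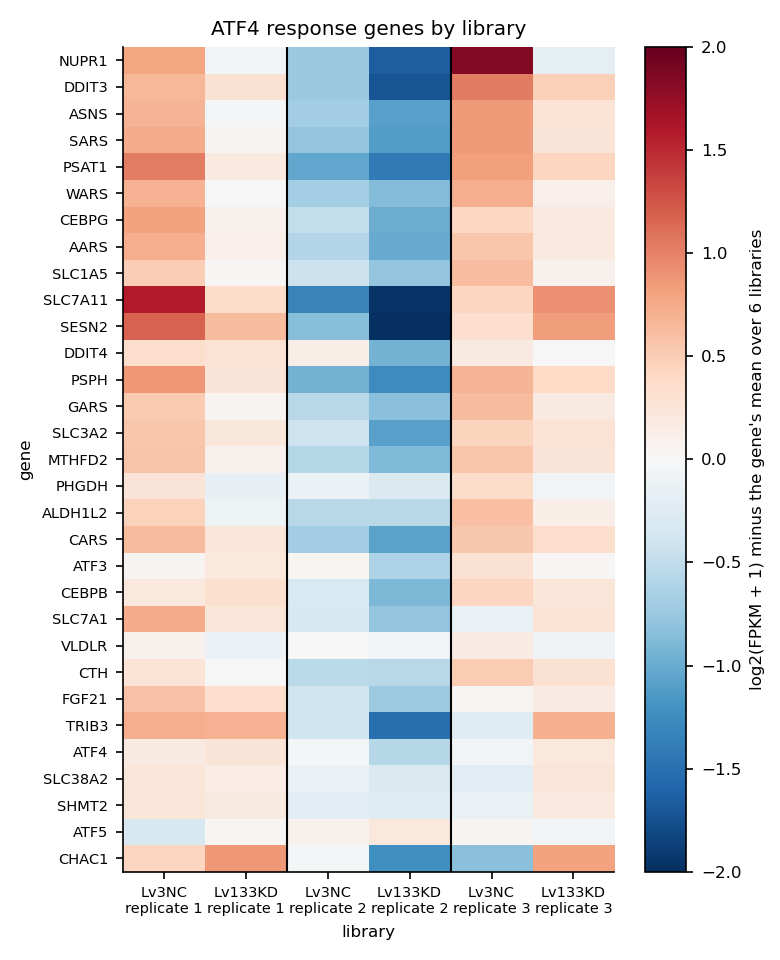
Level of the 31 tested ATF4 response genes (one per line) in the 6 libraries, ordered by pair, as log2(FPKM + 1) minus the gene's mean over the 6, with values beyond 2 shown in the end colour. Within each pair most genes are lower in Lv133KD, and for most genes both replicate 2 libraries are lower than the other 4.

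Cell cycle genes differed mainly in pair 3. Of 41 tested G1/S and DNA replication genes, 35 were higher, with a median of 0.25 and pair medians of 0.18, -0.01 and 0.64. PCNA, the sliding clamp of DNA polymerase, was at 138.2, 172.1 and 139.3 against 106.1, 157.1 and 54.70 FPKM, and at 60.95 FPKM in Lv143KD replicate 3. Within replicate 3, Lv133KD held the high value, while Lv3NC and Lv143KD were both below every other library. Of 41 mitotic genes, 29 were lower, with a median of -0.10 and pair medians of -0.00206, 0.09 and -0.41. Without Lv3NC replicate 3 the medians were 0.04 and 0.04, and without Lv133KD replicate 3 they were 0.26 and -0.07. In Lv143KD against the same controls they were 0.02 and -0.02. In the direct comparison of the vectors 37 of 41 G1/S genes were higher in Lv133KD (median 0.23) and 36 of 41 mitotic genes lower (-0.09). Over all genes 6751 of 11531 were higher and 4780 lower. That comparison includes replicate 3, where Lv133KD lay apart from the other vectors. No gene of either list was called in limma, with or without the block. At an unadjusted p under 0.05 with the block, 15 G1/S genes were higher, and 2 mitotic genes were higher and 3 lower. The shares over all genes were 9.13% higher and 7.44% lower.

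Ribosomal protein genes shifted little. Of 75, 72 were lower, with a median of -0.11 and pair medians of 0.06, -0.04 and -0.33. RPL3 was at 964.3, 973.1 and 941.7 against 1022, 1028 and 1231 FPKM. Without Lv133KD replicate 3 the median was -0.05, and with weighted libraries it was 0.01. It was -0.20 without Lv3NC replicate 1 and -0.18 without Lv133KD replicate 2. No ribosomal gene was called or reached an unadjusted p under 0.05 with the block. Reads of these genes can be shared with processed copies.

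The epithelial and stress lists that follow had medians of -0.13 to 0.09, with no gene called. Of 25 junction genes 19 were lower (median -0.13, and -0.06 without Lv3NC replicate 2), and F11R, a junctional adhesion molecule, was wholly lower at 105.9, 117.9 and 99.04 against 121.4, 136.4 and 131.4 FPKM. Of 30 matrix and integrin genes 24 were lower (-0.10, and -0.05 without Lv3NC replicate 3), among them SPARC, a secreted matrix glycoprotein, at 124.2, 120.4 and 134.7 against 151.0, 137.4 and 182.2 FPKM. Of 24 p53 targets 16 were lower (-0.12; pair medians -0.15, -0.17 and 0.09), and without Lv3NC replicate 1 their median was 0.03. Of 22 genes of MHC class I presentation 14 were lower (-0.11). Hypoxia and glycolysis genes (33, median -0.04) and endoplasmic reticulum chaperones (21, median -0.04) lay near 0, and their medians were 0.09 without Lv3NC replicate 2 and 0.16 without Lv3NC replicate 3, respectively. Of 30 interferon-stimulated genes 21 were higher (0.09), and the median was 0.01 without Lv3NC replicate 3 and -0.04 with weighted libraries. Only 16 of 31 measured enterocyte genes passed the filter, with a median of 0.01. APOA4, an apolipoprotein of enterocytes, was at 2.33, 0.94 and 1.29 against 3.29, 1.98 and 3.08 FPKM (log2 fold change -0.61, limma adjusted p = 0.924 and 0.0555).

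**Figure D5:**
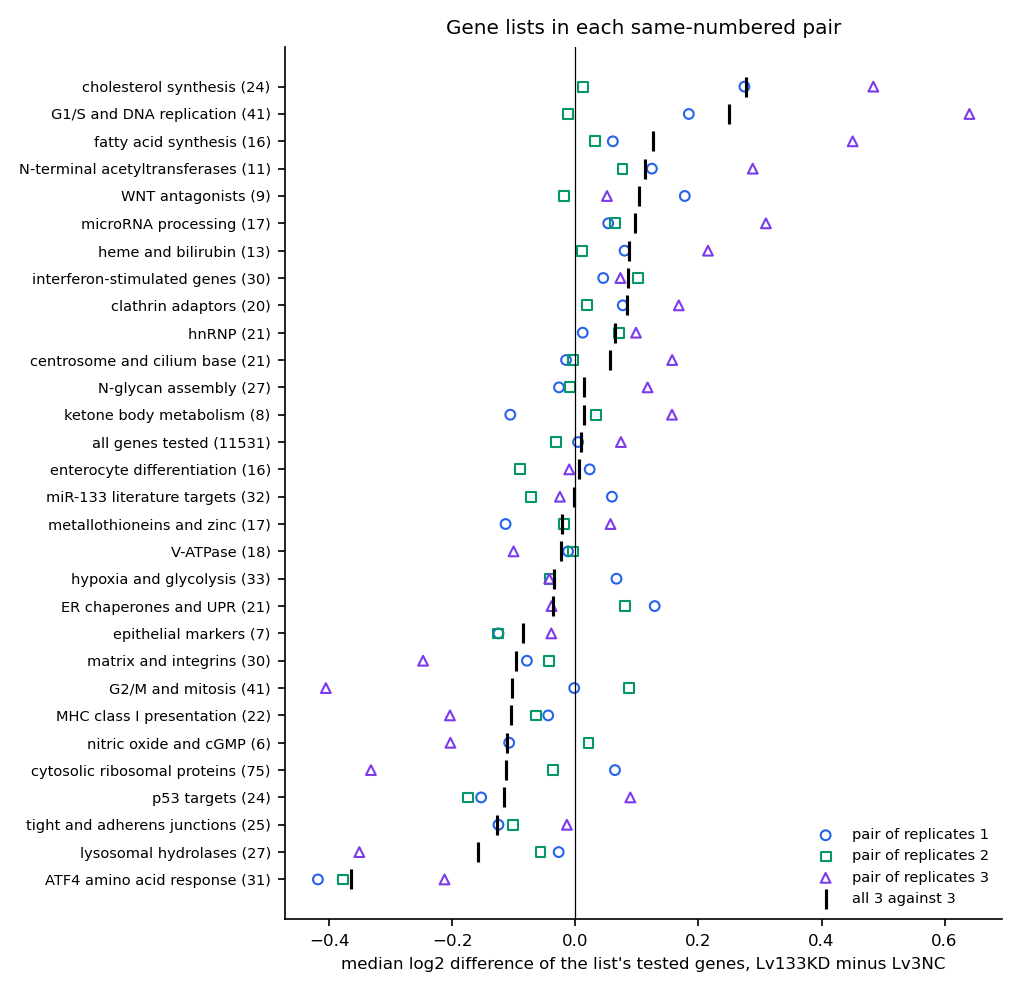
Median log2 difference (Lv133KD minus Lv3NC) of the tested members of each gene list, in each same-numbered pair (open symbols) and over 3 against 3 libraries (bars), with the number of genes in brackets. The ATF4 list lies below 0 in all 3 pairs, while the G1/S, mitotic and ribosomal lists are far from 0 in pair 3 and near 0 in pair 2.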

How the data were processed

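Total RNA of IPEC-J2 cells was sequenced. Per the file headers, the deposited values are FPKM for each gene, given to 2 decimals, with Lv3NC, Lv133KD and Lv143KD in one table and Lv20NC and OV143 in another. The build is Sscrofa 11.1, per the submitters' processing notes. Aligner, counting tool, annotation and strand use were not given in the sources used here. Read depth is unknown: of 54 low genes, 5.56% had all values within 0.1 of whole multiples of one step. FPKM sums were 486086 to 520630 in the 6 libraries. Precision is that of the fit, whose median SE was 0.143 without and 0.0968 with the block.

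The RefSeq table of the same build gave symbols for 18618 of 19000 identifiers and 1-based coordinates. The FPKM values were taken to log2(FPKM + 1), a scale on which changes of low genes come out too small. The filter was at least 1 FPKM in at least 3 of the 6 libraries. All 9 libraries of the table entered one limma fit (3.58.1, in R 4.3.3), so Lv143KD adds to the estimate of the spread. The variance was moderated with a trend on the mean level, tests were two-sided, and the Benjamini-Hochberg adjustment ran over all 11531 genes. A called gene has an adjusted p under 0.05. The fit was run on simulated libraries that varied independently, without a deviation shared by replicate number. That run therefore does not check how the block handles such a deviation. No libraries held identical values.

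Same-numbered Lv133KD and Lv3NC libraries deviated together from their group means, with correlations of 0.27, 0.70 and 0.42 across genes. Each exceeds the 0.1 required for pairing, and different numbers gave -0.69 to 0.38. Lv133KD replicate 3 with Lv3NC replicate 1 (0.38) and Lv133KD replicate 1 with Lv3NC replicate 3 (0.16) also exceeded 0.1. The first of these was above the value of the replicate 1 pair (0.27). The correlations thus set replicate 2 apart but separated replicates 1 and 3 poorly. This check is the only ground for the pairing, as no label explains the numbers. Separate cultures are not stated either, and a p-value then reflects only how these samples spread, which may be technical.

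The comparison, the 33 gene lists (810 symbols, 780 measured) and the tests were chosen with earlier results of these data known. Lists are described by counts and medians, with no test. Named genes were drawn from those called without the block, the 15 largest changes each way called with it, the 5 smallest p-values, the 8 largest changes each way with separated groups and a mean of at least 5 FPKM, up to 4 members of each list, and the literature targets. Other genes called with the block were named after their values were seen. No sequence is printed, and seed sites and promoter motifs were not analysed here. Alternatives changed the scaling, pseudocount, filter, variance model, libraries and weights. Of the genes called with the block, 2 are not reported here.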

Additional observations from a re-analysis of the deposited data

How the results depend on the processing

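In limma without the block, the 2 calls remained 2 with quantile normalization, with a pseudocount of 0.1 or 0.5 and with a minimum of 5 FPKM. They became 1 with no filter on low values and 0 with values centred on the library median (352 genes at an unadjusted p under 0.05), without the variance trend (384) and in a fit of only the 6 libraries (374). Leaving out 1 library gave 0 calls in each of 6 cases (186 to 971). Library weights gave 206 calls, 180 higher and 26 lower. The replicate block gave 33, and 32 with only the 6 libraries, 25 higher and 7 lower. With the replicate block, the 33 calls became 0 with no filter on low values (smallest adjusted p = 0.0535, with 2146 genes at an unadjusted p under 0.05) and 65 with library weights, a setting chosen after seeing the data. They ranged from 1 to 80 when the libraries of 1 number were left out, and from 22 to 36 under the other settings. Of the 33, a fit of only the 6 libraries lost 13, one without the variance trend 11 and one centred on the library median 5. The comparison with Lv143KD gave 0 calls under each setting.

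The gene results numbered 180, of which 147 were without the block and 33 repeated called genes with it. Genes named only as literature targets entered where the 3 pairs had the same sign. Of the 180, 13 changed sign under at least 1 setting, and 0 of these were results with the block. Where 1 library was left out, its same-numbered partner stayed in. Leaving out 1 library moved the log2 fold change of EGLN3 between -0.601 and 0.0916, DDIT3 between -1.17 and 0.0645, HNRNPM between -0.049 and 0.561, MAML1 between -0.195 and 0.0701, LASP1 between -0.0524 and 0.265, and CCND2 between -0.261 and 0.0781. It moved NOS3 between -0.371 and 0.058, GUCY1B3 between -0.321 and 0.072, HMOX1 between -0.00277 and 0.23, HK2 between -0.00299 and 0.555, KLF4 between -0.985 and 0.0953, and HNRNPA1 between -0.079 and 0.547. Library weights gave NOS3 0.0395 and EIF2AK2 -0.0344. Of 29 list medians, 17 crossed 0 under at least 1 setting. The cause of these changes was not tested. Depth is unknown, and 3 libraries a group limit the precision.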

Other observations

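The other table, normalised separately, gives levels of the called genes with the control vector Lv20NC. No test was made across tables. FOPNL was at 10.05, 10.14 and 10.63 FPKM in Lv20NC, beside means of 10.7 in Lv133KD and 4.06 in Lv3NC. ATP6V1H was at 41.42, 41.95 and 40.13 FPKM, beside 46.2 and 26.9. AACS was at 9.43, 8.59 and 9.73 FPKM, beside 9.67 and 3.96. Of the 29 rises called with the block that have a RefSeq symbol, 27 had an Lv20NC mean nearer to Lv133KD than to Lv3NC on the log2 scale, where 47.9% of 11379 genes did. The 3 Lv20NC libraries lay above all 3 Lv3NC libraries in 27 of the 29, where 23.7% of genes did. The exceptions to both were YWHAB, at 177.2 ± 3.63 FPKM in Lv20NC (SD, n = 3), and LOC102158723, at 14.0 ± 1.49. These genes were chosen by a rise in Lv133KD over Lv3NC, which favours low values in Lv3NC, so the counts are a description. MT-2B was at 849.6 ± 142.5 FPKM in Lv20NC, near its mean of 811.6 in Lv3NC, and at 523.9 ± 94.5 in OV143.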
